A study of Saccharomyces cerevisiae with 93 samples.

Results

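The 51 genes described here encode enzymes that make amino acids in budding yeast, and they were chosen as a fixed list of genes of the kind that the activator Gcn4 controls. Each gene was matched to 1 probe by its systematic name, so that 51 of the 6377 probes on the arrays were members. They fall into 10 pathways. The arginine genes are ARG1, ARG3, ARG4, ARG8 and CPA1, and the lysine genes LYS1, LYS2, LYS4, LYS9, LYS12, LYS20 and LYS21. The branched chain genes (leucine, isoleucine and valine) are LEU1, LEU4, LEU9, ILV1, ILV2, ILV3, ILV5, ILV6, BAT1 and BAT2. The aromatic genes (tryptophan, phenylalanine and tyrosine) are TRP2, TRP3, TRP4, TRP5, ARO1, ARO2, ARO3, ARO4 and ARO8. The smaller groups are histidine (HIS1, HIS4, HIS5, HIS7), serine (SER1, SER2, SER3, SER33), threonine and homoserine (THR1, THR4, HOM2, HOM3, HOM6), asparagine (ASN1, ASN2), glutamate and glutamine (GDH1, GLN1, GLT1) and proline (PRO1, PRO2).

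The study worked with yeast in which galactose turns on alpha-synuclein, a human protein linked to Parkinson's disease, and its title names rescue from the toxicity of that protein. Cells carried 1 copy of the alpha-synuclein gene, 2 copies, or an empty vector, and were sampled after 0, 2, 4 or 6 h in galactose. Each array set 1 RNA in the Cy5 channel against another in Cy3, with the same orientation on every array of a comparison and no dye swap. At every time point 2-copy cells were set against vector cells, 1-copy against vector cells and 1-copy against 2-copy cells. At 4 h, cells with 1 of 6 compounds were set against cells without it, in the 2-copy strain and in the vector strain, and some arrays set 2-copy over vector cells when both had received the compound. Compounds 1 and 2 are benzoquinolinones with an iodophenyl and a bromophenyl group, compounds 3 and 4 dimethyl quinolinones with a bromine and a fluorine at different positions of the phenyl ring, compound 5 a dimethyl quinolinone with an ethyl substituent, and compound 6 a bromo benzoquinolinone with an ethylphenyl group, as the labels name them. The labels name no doses, so that equal doses cannot be assumed. The labels of 1 sample describe a W303 strain of mating type a with kanMX in place of pdr1 and pdr3, genes for regulators of drug pumps, and with 2 copies of the alpha-synuclein gene, fused to green fluorescent protein, under a galactose promoter. That strain also has mutant ade2, can1, his3, leu2, trp1 and ura3 alleles, and whether the other strains share this background is not stated. The alpha-synuclein plasmids are integrating plasmids of the TRP1 and URA3 series, so TRP1, which encodes a step of tryptophan synthesis, is also a strain marker here.

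Yeast cells starved of any amino acid raise translation of the Gcn4 messenger through the kinase Gcn2, and Gcn4 then activates biosynthetic genes across many pathways, a response called general amino acid control. Several pathways have their own control as well: Arg80, Arg81 and Mcm1 repress arginine synthesis when arginine is present, Lys14 answers to an intermediate of lysine synthesis, and Leu3 to one of leucine synthesis. Gcn4 protein is set mainly by translation, so the level of GCN4 messenger need not follow it.

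Values are log2 ratios, so 1 unit is a doubling, and a mean is given with its SD over arrays. The labels state neither the log base nor the direction of the deposited ratios, which were read as log2 of the first-named RNA (Cy5) over the second (Cy3), and the signal of a spot over its background is not known here. A member was counted as higher or lower where its adjusted p, from limma's moderated test with Benjamini-Hochberg adjustment over all 6377 probes, was under 0.05. The shares of all probes past this threshold were taken at that adjusted p in the main fit. They do not apply to counts at an unadjusted p, with scaled arrays or in other fits. Of 93 arrays, 10 that an earlier analysis of these data had set apart were left out: arrays 2 and 3 where both strains had received compound 3, 4 or 6, and from the 2-copy cells with and without a compound arrays 2 and 3 for compound 3 and array 3 for compound 4 and for compound 6. The 83 kept arrays left 1 array in 4 groups, which were given no test, and 2 arrays in 2 groups. With all 93 arrays, 8 members in place of 9 passed with compound 4 in 2-copy cells and 0 with compound 6. Array medians lay between -0.031 and 0.021, and no probe measured alpha-synuclein itself. The galactose genes GAL1, GAL7 and GAL10, which answer to the same inducer, had log2 ratios of 2-copy over vector between -0.90 and -0.13, between -0.14 and 0.40 and between -0.63 and -0.13 on the 6 arrays at 4 h, and at 6 h between -0.17 and 0.25, between -0.15 and 0.20 and between -0.11 and 0.12. At 0 h GAL1 was between -0.62 and -0.35, GAL7 between -0.51 and 0.97 and GAL10 between -0.89 and -0.57. At 2 h GAL1 was between -0.041 and 0.27, GAL7 between 0.28 and 1.59 and GAL10 between -0.059 and 0.13. The value at 0 h is from before induction, and later both strains were in galactose, so these ratios do not show induction. Their part in the results was not tested. Of the 51 members, 49 passed the threshold in at least 1 of the 26 tested comparisons of 2 RNAs. The 2 that passed in none were the homoaconitase gene LYS4 and the asparagine synthetase gene ASN1. The share of all probes passing in at least 1 was not counted. At 4 h alone 32% and 29.8% of all probes were higher and lower in 2-copy than in vector cells. Labels speak of biological replicates, numbered to 3 for most comparisons and to 6 for 2-copy over vector at 4 h. For the arrays with compounds they do not say whether a culture served more than 1 comparison. The p-values rest on the spread of a probe between arrays within groups, pooled over all groups of the 83 kept arrays. They do not measure the SD of the few arrays printed beside them.

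**Figure D1:**
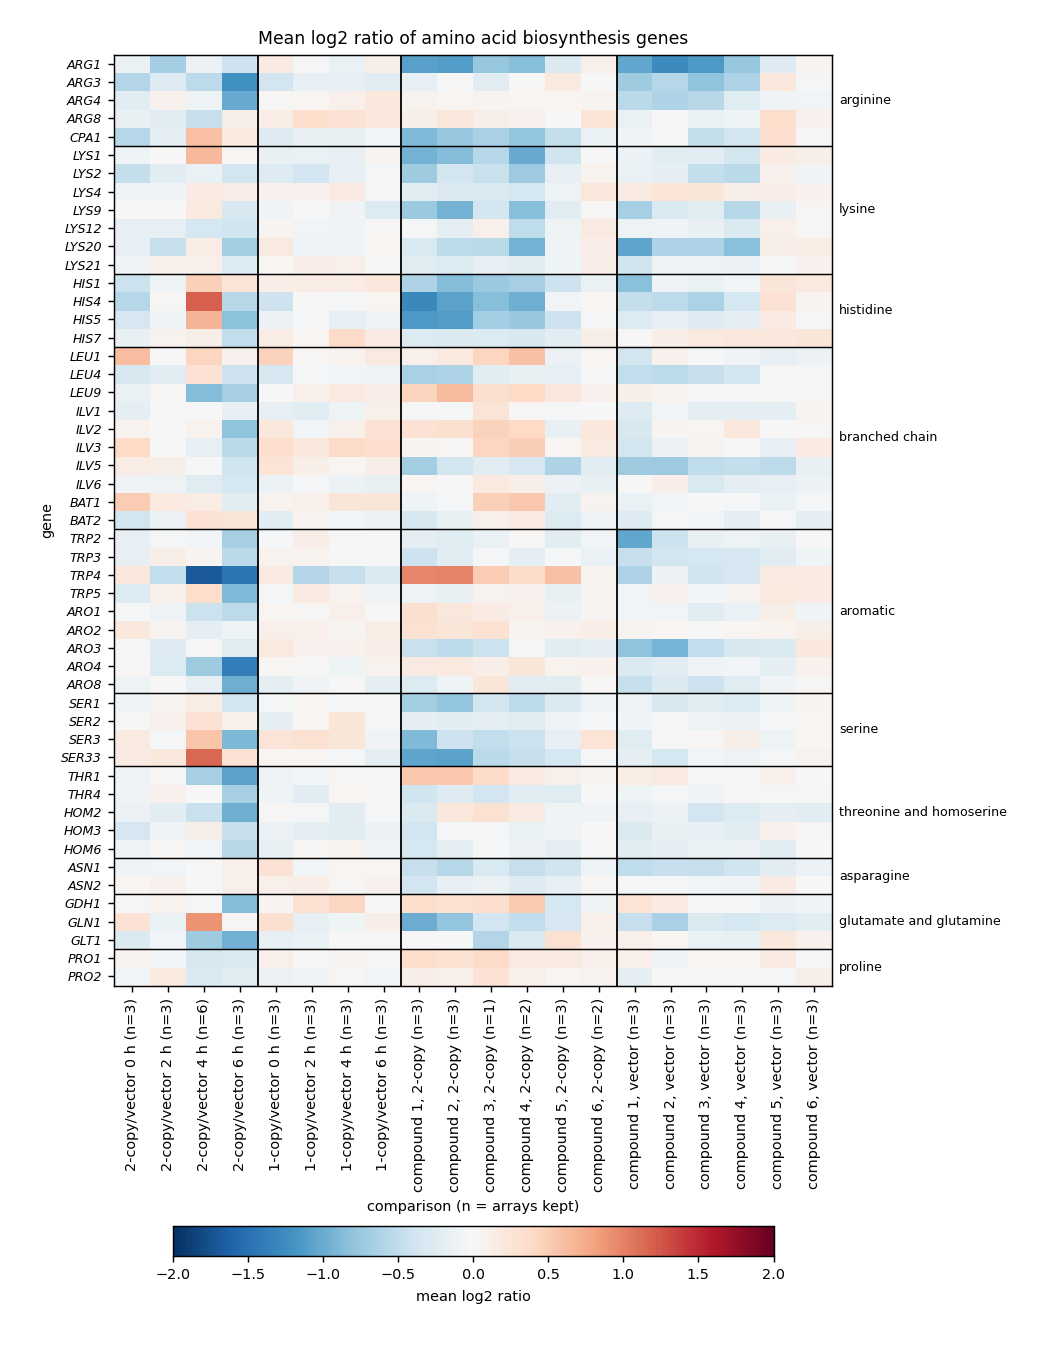
Mean log2 ratio of each of the 51 genes (rows, grouped by pathway) in 20 comparisons (columns, with the number of kept arrays), from blue (lower in the first-named cells or with the compound) to red (higher). Most histidine and serine genes are red at 4 h of 2-copy over vector and blue with compounds 1 and 2 in 2-copy cells, most genes are blue at 6 h, and the 1-copy columns are pale.

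The comparison of 2-copy with vector cells over time asked how amino acid synthesis genes stood at 0, 2, 4 and 6 h in galactose. Before induction and at 2 h few members differed, at 4 h the members split in both directions, and at 6 h most were lower in 2-copy cells. At 0 h 2 members were higher and 2 lower, where 8.39% and 6.45% of all probes were, and 2 passed in all without replicate 1 or without replicate 3. At 2 h the counts were 0 and 1 (limma), against 6.9% and 5.33% of all probes, and 5 members had an unadjusted p under 0.05. At 4 h 13 were higher and 14 lower, shares close to the 32% and 29.8% of all probes, and with each array scaled to 1 spread the counts were 7 and 12. At 6 h 0 were higher and 33 lower (limma, 36 at an unadjusted p under 0.05), against 22.6% and 20.2% of all probes, and with arrays scaled to 1 spread the counts were 0 and 17. The median member stood at -0.079, -0.015, 0.0042 and -0.42 at 0, 2, 4 and 6 h, and the median on single arrays at 6 h ran from -0.49 to -0.30, while the median of all probes was -0.00063.

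Histidine and serine synthesis genes were the groups with the highest medians at 4 h. Of 4 histidine genes 3 were higher and of 4 serine genes 3, with 0 and 0 lower, and their medians were 0.58 and 0.43. HIS4 (YCL030C), whose product carries out several steps of histidine synthesis including the last, had a lowest, median and highest log2 ratio of 0.86, 1.20 and 1.51 on the 6 arrays (mean 1.20 ± 0.23, adjusted p = 4.44e-09). All 6 arrays lay above every array at 0, 2 and 6 h. SER33 (YIL074C) and its paralog SER3 (YER081W) encode phosphoglycerate dehydrogenase, the first enzyme of serine synthesis. SER33 had a lowest, median and highest log2 ratio of 0.79, 1.17 and 1.47 (mean 1.14 ± 0.25, adjusted p = 7.23e-15), and SER3 a lowest, median and highest log2 ratio of 0.054, 0.63 and 0.98 (mean 0.56 ± 0.34, adjusted p = 0.000157). Both were above 0 on every array, SER33 by more than SER3. HIS5 (YIL116W), histidinol-phosphate aminotransferase, had a lowest, median and highest log2 ratio of -0.48, 0.83 and 1.28 (mean 0.68 ± 0.62, adjusted p = 6.92e-05), with array 3 below 0 and the other 5 above it. The remaining higher member of the histidine list was HIS1, ATP phosphoribosyltransferase (0.47 ± 0.42, adjusted p = 0.0149), on which array 4 was at -0.0058.

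The other members that were higher at 4 h came from several pathways. GLN1 (YPR035W), glutamine synthetase, had a lowest, median and highest log2 ratio of 0.70, 0.75 and 1.37 (mean 0.90 ± 0.27, adjusted p = 4.39e-07). The lysine pathway's last enzyme, LYS1 (YIR034C), had a lowest, median and highest log2 ratio of 0.34, 0.63 and 1.01 (mean 0.64 ± 0.27, adjusted p = 1.3e-05), and the small subunit of arginine-specific carbamoyl phosphate synthetase, CPA1 (YOR303W), a lowest, median and highest log2 ratio of 0.17, 0.63 and 0.85 (mean 0.60 ± 0.25, adjusted p = 0.00269). All 3 were above 0 on each of the 6 arrays. LEU1, LEU4, BAT2, TRP5 and SER2 were higher as well, with means from 0.28 for the alpha-isopropylmalate synthase LEU4 to 0.43 for isopropylmalate isomerase LEU1. On single arrays SER2 ran from -0.19 to 1.06 and LEU1 from -0.025 to 0.79.

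The lowest member at 4 h was TRP4 (YDR354W), anthranilate phosphoribosyltransferase of tryptophan synthesis, with a lowest, median and highest log2 ratio of -2.05, -1.73 and -1.21 (mean -1.69 ± 0.33, adjusted p = 3.78e-14). LEU9 (YOR108W), the lesser of the alpha-isopropylmalate synthases that open leucine synthesis, had a lowest, median and highest log2 ratio of -1.12, -0.82 and -0.61 (mean -0.86 ± 0.18, adjusted p = 2.74e-13). ARO4 (YBR249C), a DAHP synthase at the head of aromatic synthesis, had a lowest, median and highest log2 ratio of -0.94, -0.70 and -0.41 (mean -0.71 ± 0.20, adjusted p = 6.98e-09). These 3 were below 0 on all 6 arrays, and none of their 4 h arrays reached the range at 0 h. Glutamate synthase GLT1 (YDL171C) was lower, with a mean of -0.71 ± 0.17 (adjusted p = 1.41e-08) and homoserine kinase THR1 (YHR025W) too, with -0.66 ± 0.34 (adjusted p = 9.79e-11), with array 4 of THR1 close to 0 at -0.082. Both proline genes, PRO1 and PRO2, were lower at -0.32 and -0.31, and the means of ARG3, ARG8, LYS12, ILV6, ARO1, ARO2 and HOM2 ranged from -0.52 to -0.20. On single arrays ILV6 ran from -0.54 to 0.40.

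The 6 arrays at 4 h came as numbers 1 to 3 and 4 to 6, and for 12 members these sets did not overlap, against 34.1% of all probes. Of the 12, 3 were higher on arrays 1 to 3. ARG3 averaged -0.31 on arrays 1 to 3 and -0.73 on arrays 4 to 6, LYS20 -0.11 on arrays 1 to 3 and 0.40 on arrays 4 to 6, and HOM2 -0.64 on arrays 1 to 3 and -0.25 on arrays 4 to 6. LYS20, homocitrate synthase, therefore had opposite signs in the sets and no call over all 6. With arrays 1 to 3 alone 19 members passed the threshold and with arrays 4 to 6 alone 24, against 27 with all.

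**Figure D2:**
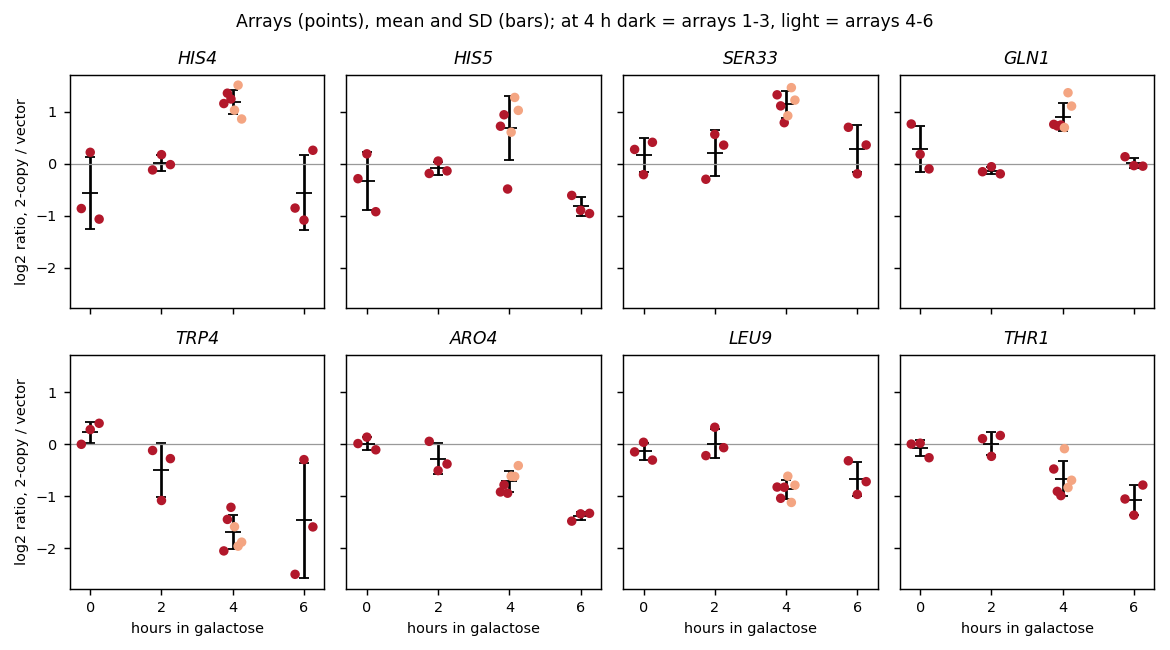
Log2 ratio of 2-copy over vector for 8 members at 0, 2, 4 and 6 h in galactose, with each array as a point and the mean and SD as bars; at 4 h dark points are arrays 1 to 3 and light points arrays 4 to 6. HIS4, HIS5, SER33 and GLN1 stand highest at 4 h, whereas TRP4, ARO4, LEU9 and THR1 lie below 0 at 4 h and 6 h.

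By 6 h lower members came from 9 of the 10 pathways, all but asparagine, and 20.2% of all probes were lower. The pathways were not tested as sets, and counts in the small ones rest on few genes. All 5 threonine and homoserine genes were lower (median -0.67), 7 of 9 aromatic genes (median -0.66), 6 of 10 branched chain genes (-0.38), 4 of 7 lysine genes (-0.32) and 2 of 5 arginine genes (-0.42). Of the smaller groups, 3 of 4 histidine, 2 of 4 serine, 2 of 3 glutamate and glutamine and 2 of 2 proline genes were lower. The median aromatic gene lay below 0 on every array, from -0.72 to -0.47, while the median arginine gene ran from -0.86 to 0.083. Without replicate 3, 24 members passed the threshold, and a fit to these 3 arrays alone called 15. With arrays scaled to 1 spread, 17 passed.

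TRP4 was at -2.50, -0.29 and -1.59 on the 3 arrays at 6 h (mean -1.46 ± 1.11, adjusted p = 1.99e-07). ARO4 was at -1.47, -1.33 and -1.32 (mean -1.38 ± 0.084, adjusted p = 2.9e-12). ARG3 (YJL088W), ornithine carbamoyltransferase, was at -1.15, -1.40 and -1.09 (mean -1.21 ± 0.16, adjusted p = 2.24e-08). All 3 genes were lower on every array, with TRP4 spread over a far wider range than ARO4 or ARG3. The p of TRP4 rests on the spread pooled over all groups, not on that range alone. THR1 was at -1.05, -1.36 and -0.78 (mean -1.06 ± 0.29, adjusted p = 7.5e-12), and ARG4 (YHR018C), argininosuccinate lyase, at -0.49, -1.35 and -1.16 (mean -1.001 ± 0.45, adjusted p = 6.62e-05). Other low members were ARO8, an aromatic aminotransferase, at -0.98, aspartic semialdehyde dehydrogenase HOM2 at -0.98, GLT1 at -0.96, SER3 at -0.90, tryptophan synthase TRP5 at -0.88, the glutamate dehydrogenase GDH1 at -0.87 and acetolactate synthase ILV2 at -0.81. The highest members at 6 h, SER33 at 0.29 ± 0.45 and HIS1 at 0.27 ± 0.65, did not pass the test (adjusted p = 0.0923 and 0.398).

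Between 4 h and 6 h the ratio of 26 members fell and that of 1 rose, against 17.2% and 15.9% of all probes, and without replicate 2 the count of both fell to 17. This difference between times was added after the sign of single members had been seen. Among members higher at 4 h, 5 were lower at 6 h: HIS4, HIS5, LEU4, SER3 and TRP5. HIS4 fell by 1.75 (SE 0.28, adjusted p = 1.31e-06), HIS5 by 1.50 (SE 0.26, adjusted p = 4.62e-06) and SER3 by 1.46 (SE 0.22, adjusted p = 4.86e-07). Their means at 4 h were 1.26, 0.40 and 0.34 on arrays 1 to 3 and 1.14, 0.97 and 0.77 on arrays 4 to 6. With arrays 1 to 3 alone at 4 h, 16 members passed for the change to 6 h, and with arrays scaled to 1 spread 10. At 6 h HIS4 was at -0.85, -1.08 and 0.26, so array 3 stayed above 0 but under every array at 4 h, and HIS5 was at -0.61, -0.89 and -0.95. The only member that rose was ARG8 (YOL140W), acetylornithine aminotransferase, from a median of -0.49 at 4 h to 0.48, 0.083 and -0.19 at 6 h (0.58, SE 0.17, adjusted p = 0.00432). Members lower at both times numbered 12, among them TRP4, ARO4, LEU9, THR1, GLT1 and ARG3. A further 16 were called at 6 h only, all lower, and 8 were higher at 4 h and not called at 6 h. Another 2 were lower at 4 h only, and 8 were called at neither time. These patterns over both times were not counted for all probes, so the numbers cannot be set against such a share.

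Relative to 0 h, 0 members had risen and 0 fallen at 2 h (limma, 5 at an unadjusted p under 0.05), where 1.83% and 3.79% of all probes had. At 4 h 10 members had risen and 11 fallen (all probes 21.8% and 18.5%, and 7 and 4 members with arrays scaled to 1 spread), and at 6 h 1 and 20 (all probes 13% and 12.6%). The largest rises to 4 h were those of HIS4 (1.76, SE 0.28, adjusted p = 5.98e-07), SER33 (0.98) and LYS1 (0.72) among members whose arrays did not overlap, and the largest falls those of TRP4 (-1.92, SE 0.27, adjusted p = 3.98e-08), LEU9 (-0.73) and ARO4 (-0.73). By 6 h TRP4 stood -1.69, ARO4 -1.40 and SER3 -1.08 from its value at 0 h. With arrays scaled to 1 spread the count of 6 h was 5, and in a fit to these arrays alone 4. Without replicate 2 it fell from 21 to 10.

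A few members differed before or early in induction. At 0 h LEU1 was at 0.65, 0.44 and 0.76 (mean 0.62 ± 0.16, adjusted p = 0.0107) and the mitochondrial branched chain aminotransferase BAT1 (YHR208W) at 0.81, 0.57 and 0.12 (0.50 ± 0.35, adjusted p = 0.000798), while ARG3 was at -0.39, -0.60 and -0.76 (-0.58 ± 0.18, adjusted p = 0.0126) and alpha-aminoadipate reductase LYS2 (YBR115C) at -0.39, -0.30 and -0.74 (-0.48 ± 0.23, adjusted p = 0.0281). Each had 1 sign on all 3 arrays. LYS20 was the 1 member called at 2 h, at -0.38, -0.63 and -0.35 (-0.46 ± 0.15, adjusted p = 0.0239), and without replicate 1 or 3 it too was not called. Argininosuccinate synthetase ARG1 (YOL058W) had the lowest mean at 2 h, -0.68 ± 0.60, with arrays at -0.66, -0.10 and -1.30, and did not pass (adjusted p = 0.0536).

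The 1-copy strain set a lower dose of the gene against the same vector. Against vector cells no member passed the threshold at 0, 2, 4 or 6 h (limma), with 4, 3, 6 and 3 members at an unadjusted p under 0.05. Of all probes 0.721% and 2.26% were higher and lower at 0 h, 0.8% and 4.96% at 2 h, 0.141% and 0.502% at 4 h and 0.125% and 0.674% at 6 h. With each array scaled to 1 spread, 3, 3, 5 and 5 members passed at the respective times. TRP4 had the lowest mean at 4 h, -0.45 ± 0.16, with arrays at -0.60, -0.48 and -0.29 (adjusted p = 0.485), and HIS4 was at 0.044, -0.068 and -0.052. The median member lay between -0.007 and 0.034 at the 4 times.

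On arrays that set 1-copy directly against 2-copy cells, 0 members were higher and 0 lower in 1-copy cells at 0 h (limma, 6 at an unadjusted p under 0.05; all probes 1.79% and 2.71%), 5 and 0 at 2 h (all probes 5.1% and 6.84%), 15 and 8 at 4 h (23.2% and 24.9%) and 34 and 1 at 6 h (19.8% and 20%). The series' design text has the strain samples of a time hybridised in every combination, so these arrays share samples with those of each strain against vector and are given only beside them. At 4 h HIS4 was at -0.84, -1.27 and -1.26 (mean -1.12 ± 0.24, adjusted p = 4.53e-05) and SER33 at -1.16, -1.10 and -1.03 (-1.10 ± 0.068, adjusted p = 4.63e-09), both lower in 1-copy cells on every array. LEU9 was at 1.15, 1.24 and 1.10 (1.16 ± 0.074, adjusted p = 7.25e-12), ARO4 at 1.07, 1.13 and 1.00 (1.06 ± 0.068, adjusted p = 4.16e-09) and TRP4 at 1.34, 0.86 and 0.87 (1.02 ± 0.27, adjusted p = 0.000108), all higher in 1-copy cells. At 6 h ARO4 stood at 1.75, 1.71 and 1.65 (1.70 ± 0.051, adjusted p = 3e-15), TRP4 at 2.24, 1.59 and 0.79 (1.54 ± 0.73, adjusted p = 7.32e-08) and ILV2 at 1.75, 1.25 and 1.44 (1.48 ± 0.25, adjusted p = 5.47e-15). BAT2, at -0.96, -0.72 and -0.59, was the 1 member lower in 1-copy cells at 6 h (-0.76 ± 0.19, adjusted p = 3.73e-05). At 2 h the higher members were ARG8 (0.70), LYS20 (0.51), TRP2 (0.43), ARO1 and ARO3, of which 1 in number passed without replicate 1 and 2 without replicate 3.

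**Figure D3:**
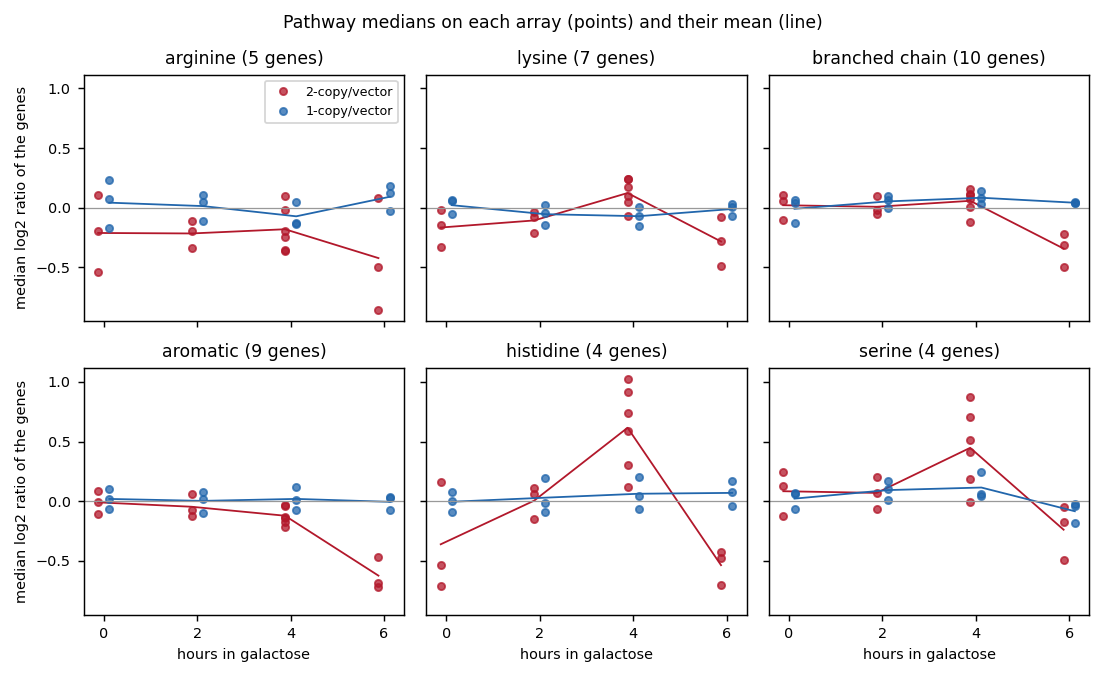
Median log2 ratio over the genes of 6 pathways on each array (points) against hours in galactose, for 2-copy over vector (red) and 1-copy over vector (blue), with lines through the mean of the array medians. The 2-copy medians of histidine and serine genes peak at 4 h, the aromatic and branched chain medians are lowest at 6 h, and the 1-copy medians stay near 0.

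Where 2 genes encode the same enzyme, the copies did not always move together in 2-copy cells. Of the alpha-isopropylmalate synthases, LEU4 was higher at 4 h (0.28 ± 0.17, adjusted p = 0.00319) and LEU9 lower (-0.86), with LEU4 above 0 and LEU9 below 0 on all 6 arrays, and at 6 h both were lower (-0.42 and -0.66). Of the DAHP synthases, ARO4 was lower at both times, whereas ARO3 was at 0.025 ± 0.09 at 4 h and -0.24 ± 0.078 at 6 h and was not called (adjusted p = 0.792 and 0.069). SER3 and SER33 were both higher at 4 h, and at 6 h SER3 was lower (-0.90) while SER33 was at 0.29 with no call. The homocitrate synthases LYS20 and LYS21 were both lower at 6 h (-0.67 and -0.27), BAT2 was higher at 4 h (0.28) and BAT1 had no call (0.15), and neither asparagine synthetase gene, ASN1 or ASN2, was called at 4 h (0.0042 and -0.0096) or 6 h (0.10 and 0.10). Differences between paralogs were not tested, nor was whether 1 probe binds RNA of both copies.

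The vector cells, which carry no alpha-synuclein gene, served to measure the compounds apart from it. The members called were all lower, and arginine genes had the lowest pathway median with compounds 1, 2, 3 and 4. Compound 1 left 0 members higher and 10 lower (all probes 1.18% and 4.09%), compound 2 0 and 5 (all probes 0.91% and 1.24%), compound 3 0 and 4 (0.172% and 0.172%), compound 4 0 and 1 (0.125% and 0.267%), compound 5 0 and 1 (0.0941% and 0.674%) and compound 6 0 and 0 (0.0157% and 0%). With arrays scaled to 1 spread, 14, 9, 19, 14, 2 and 1 members passed, and in fits to each comparison's own arrays 0, 0, 12, 4, 0 and 0, so the order of the compounds by count depends on the setting. At an unadjusted p under 0.05 there were 23, 16, 13, 12, 4 and 0 members (limma). No share of all probes is given at that p or in those settings, so the percentages above do not apply to these counts. The arginine median was -0.54, -0.56, -0.55 and -0.37 with compounds 1 to 4, and 0.20 and -0.018 with compounds 5 and 6. On single arrays it stayed below 0 for compounds 1 to 4, from -0.73 to -0.19 with compound 1 and from -0.98 to -0.25 with compound 3. The 6 comparisons set cells with compound against vector cells without it, so they may share control RNA.

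ARG1 was the lowest or next lowest member with compounds 1, 2 and 3. It was at -0.43, -1.53 and -1.17 with compound 1 (mean -1.04 ± 0.56, adjusted p = 0.00534), at -1.42, -1.76 and -0.62 with compound 2 (-1.27 ± 0.58, adjusted p = 0.000656) and at -1.56, -0.99 and -0.87 with compound 3 (-1.14 ± 0.37, adjusted p = 0.0128). With compound 4 it was at -0.77, -1.03 and -0.46 (-0.75 ± 0.29, adjusted p = 0.231), below 0 on every array but past no threshold. With compound 5 its mean was -0.27 ± 0.26 and with compound 6 0.049 ± 0.03 (adjusted p = 0.932 and 1). LYS20 was at -0.59, -1.80 and -0.79 with compound 1 (-1.06 ± 0.65, adjusted p = 7.2e-07), -0.86, -0.60 and -0.38 with compound 2 (-0.61 ± 0.24, adjusted p = 0.00738), -0.76, -0.50 and -0.61 with compound 3 (-0.62 ± 0.13, adjusted p = 0.0196) and -0.92, -0.59 and -1.01 with compound 4 (-0.84 ± 0.22, adjusted p = 0.000554). All 12 of these arrays were below 0, and the 6 arrays with compounds 5 and 6 lay between -0.089 and 0.47. ARO3 was at -0.62, -1.07 and -0.73 with compound 1 (-0.81 ± 0.24, adjusted p = 7.2e-07), -0.81, -1.30 and -0.70 with compound 2 (-0.93 ± 0.32, adjusted p = 1.21e-08) and -0.80, -0.28 and -0.37 with compound 3 (-0.49 ± 0.28, adjusted p = 0.0139). Its means with compounds 4, 5 and 6 were -0.33, -0.29 and 0.21, with no call.

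Part of these calls did not hold when arrays were left out. Leaving out a replicate removed the arrays of that number from every group, so a call can also be lost through fewer arrays. With compound 1, array 2 was far lower than the others for anthranilate synthase TRP2 (-0.45, -2.21 and -0.43), HIS1 (-0.33, -1.70 and -0.48) and LYS20, and without replicate 2 the count fell from 10 to 2. With compound 2 it fell from 5 to 2 without replicate 2. With compound 3, 0 members passed without replicate 1, 2 or 3 in turn, and with compound 4 0 without replicate 1 or 3. With compound 5, 0 passed without replicate 2 or 3 and 2 without replicate 1. ILV5 (YLR355C), acetohydroxyacid reductoisomerase of the branched chain pathway, was below 0 on all 15 arrays with compounds 1 to 5, with means of -0.71, -0.73, -0.51, -0.47 and -0.52, and was called with compounds 1, 2 and 5 (adjusted p = 0.000848, 0.00057 and 0.0487, against 0.0937 and 0.144 with compounds 3 and 4). With compound 6 it was at -0.24, -0.24 and 0.022.

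**Figure D4:**
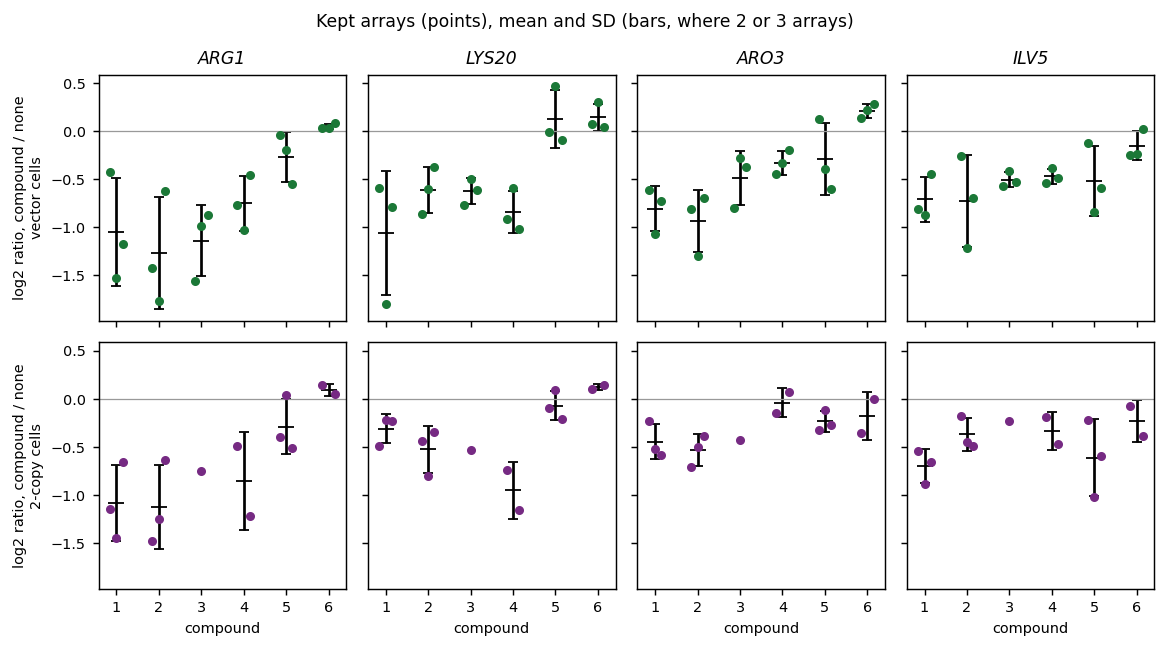
Log2 ratio of cells with over cells without each of compounds 1 to 6 for ARG1, LYS20, ARO3 and ILV5, in vector cells (top) and 2-copy cells (bottom), with kept arrays as points and mean and SD as bars where there are 2 or 3 arrays. In vector cells ARG1 and LYS20 are below 0 on every array with compounds 1 to 4 and near 0 with compound 6.

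In the 2-copy strain, cells with a compound were set against cells without it at 4 h, when some amino acid genes of untreated cells differed from vector cells. Whether a compound was added before or after those differences arose is not given here. Compound 1 left 6 members higher and 19 lower (all probes 17.2% and 19.8%), and compound 2 6 and 15 (all probes 16.6% and 20.5%). Compound 4, on 2 arrays, left 1 higher and 8 lower (4.89% and 8.25%), compound 5 0 and 1 (0.376% and 1.74%), and compound 6, on 2 arrays, 0 and 0 (0.0157% and 0%; limma, 0 at an unadjusted p under 0.05). Compound 3 had 1 array and no test. Lower members were most frequent among the histidine genes, of which 3 of 4 were lower with compound 1 and 3 with compound 2 (medians -0.88 and -0.97), followed by serine genes (3 and 2 of 4, medians -0.78 and -0.60) and lysine genes (3 and 4 of 7, medians -0.31 and -0.36). Without replicate 1 the count for compound 1 fell from 25 to 14, and for compound 4 it fell from 9 to 5 without replicate 1 and 1 without replicate 2.

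HIS4 was at -1.96, -0.77 and -1.12 with compound 1 (mean -1.29 ± 0.61, adjusted p = 9.06e-06), -1.27, -1.02 and -0.93 with compound 2 (-1.07 ± 0.18, adjusted p = 0.000144), -0.85 on the array with compound 3 and -0.76 and -1.21 with compound 4 (-0.98 ± 0.31, adjusted p = 0.0118). With compound 5 its arrays were at -0.48, 0.57 and -0.27 and with compound 6 at 0.02 and 0.052, so that signs differed with the first and both values were near 0 with the second. HIS5 was at -1.57, -1.10 and -0.80 with compound 1 (-1.15 ± 0.39, adjusted p = 1.28e-05), -1.57, -1.05 and -0.75 with compound 2 (-1.12 ± 0.41, adjusted p = 1.92e-05) and -0.69 and -0.84 with compound 4 (-0.76 ± 0.11, adjusted p = 0.0376). SER33 was at -1.19, -1.15 and -0.82 with compound 1 (-1.05 ± 0.20, adjusted p = 3.77e-08) and -1.48, -1.06 and -0.69 with compound 2 (-1.07 ± 0.39, adjusted p = 1.59e-08). With compounds 3, 4 and 5 SER33 was below 0 on every array and past no threshold (-0.54 on 1 array, then -0.46 ± 0.0035 and -0.35 ± 0.14). GLN1 was lower with compounds 1 and 2 (means -0.996 ± 0.25 and -0.79 ± 0.58, adjusted p = 0.000127 and 0.00197).

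TRP4 was the highest member with compounds 1 and 2. It was at 0.99, 1.08 and 0.86 with compound 1 (0.98 ± 0.11, adjusted p = 0.000343) and 0.96, 1.11 and 0.91 with compound 2 (0.99 ± 0.10, adjusted p = 0.000246). With compound 3 it was at 0.52, with compound 4 at 0.42 and 0.34 (adjusted p = 0.408), with compound 5 at 0.81, 0.39 and 0.55 (adjusted p = 0.147) and with compound 6 at 0.16 and -0.022. THR1 was at 0.42, 0.74 and 0.46 with compound 1 (0.54 ± 0.18, adjusted p = 7.67e-05) and 0.14, 0.84 and 0.63 with compound 2 (0.53 ± 0.36, adjusted p = 8.79e-05), and LEU9 at 0.43, 0.44 and 0.46 (0.44 ± 0.013, adjusted p = 0.00254) and 0.77, 0.69 and 0.43 (0.63 ± 0.18, adjusted p = 2.38e-05). PRO1 was also higher with both (0.36 and 0.31), ARO1 with compound 1 (0.33) and ILV2 with compound 2 (0.32). These arrays and those of untreated 2-copy over vector both used untreated 2-copy RNA at 4 h, and may share it, so the opposite signs of HIS4, SER33, TRP4 and LEU9 in them may not be independent.

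Some arginine and lysine genes fell in 2-copy cells too. ARG1 was at -1.14, -1.45 and -0.66 with compound 1 (-1.08 ± 0.40, adjusted p = 0.000344), -1.48, -1.25 and -0.63 with compound 2 (-1.12 ± 0.44, adjusted p = 0.0002) and -0.49 and -1.21 with compound 4 (-0.85 ± 0.51, adjusted p = 0.0471). All 8 arrays were below 0, as were the 9 arrays of these compounds in vector cells. LYS1 was lowest with compound 4, at -0.94 and -1.08 (-1.01 ± 0.10, adjusted p = 0.000698), and LYS20 was at -0.74 and -1.16 there (-0.95 ± 0.30, adjusted p = 9.01e-05). The glutamate-forming saccharopine reductase gene LYS9 was at -0.94 with compound 2 (adjusted p = 0.00338). BAT1 was the 1 member higher with compound 4, at 0.42 and 0.67 (0.55 ± 0.18, adjusted p = 0.0029), and ILV5 the 1 member called with compound 5, at -0.22, -1.02 and -0.59 (-0.61 ± 0.40, adjusted p = 0.00956). Without replicate 2 or 3 no member was called with compound 5.

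**Figure D5:**
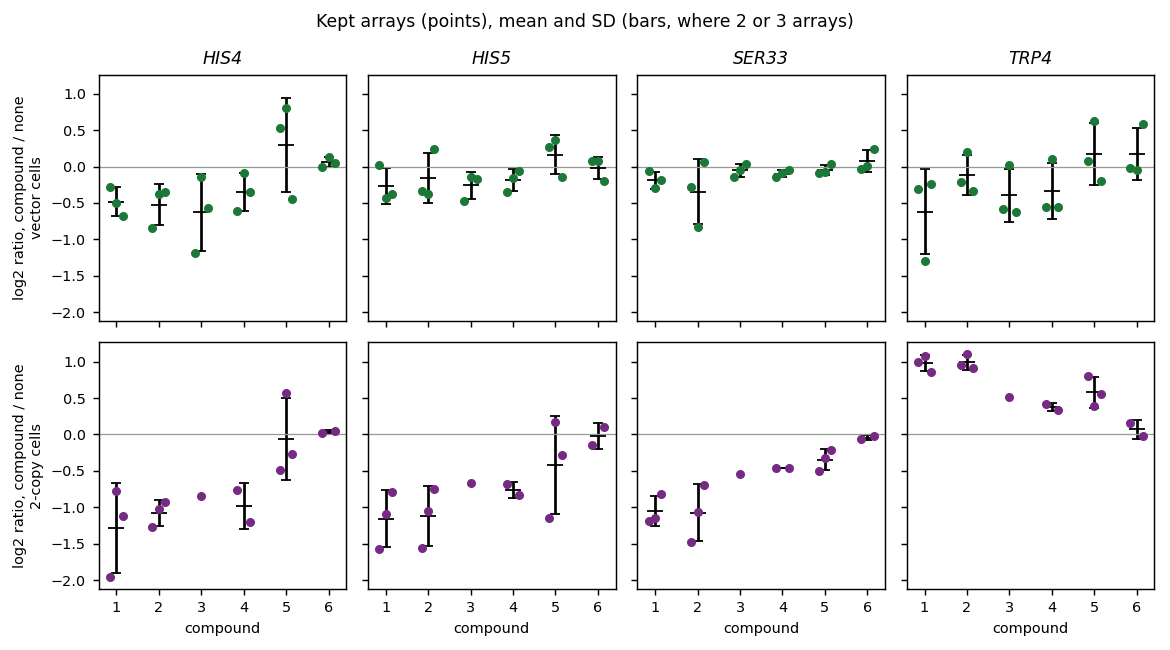
Log2 ratio of cells with over cells without each compound for HIS4, HIS5, SER33 and TRP4, in vector cells (top) and 2-copy cells (bottom), with kept arrays as points and mean and SD as bars where there are 2 or 3 arrays. In 2-copy cells HIS4, HIS5 and SER33 are below 0 and TRP4 above 0 on every array with compounds 1 and 2, and all 4 are near 0 with compound 6.

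Whether a compound acted differently in the strains was tested as the response in 2-copy minus that in vector cells. For compound 1 5 members had a higher and 4 a lower response in 2-copy cells (all probes 7.73% and 9.63%), and for compound 2 2 and 3 (5.6% and 10.2%). With arrays scaled to 1 spread the counts were 5 and 0 for compound 1 and 3 and 0 for compound 2. For compounds 4, 5 and 6 no member passed in either direction (limma, 8, 4 and 1 at an unadjusted p under 0.05; all probes 0.627% and 1.69%, 0.047% and 0.0314% and 0% and 0%). TRP4 differed by 1.59, SE 0.31, adjusted p = 0.000196 with compound 1, where vector cells were at -0.31, -1.30 and -0.24, and by 1.11, SE 0.31, adjusted p = 0.00882 with compound 2, where they were at -0.21, 0.19 and -0.34. HIS5 differed by -0.89, SE 0.30, adjusted p = 0.029 and by -0.96, SE 0.30, adjusted p = 0.0185, and SER33 by -0.87, SE 0.20, adjusted p = 0.00157 with compound 1. LYS20 had a lower ratio in vector than in 2-copy cells with compound 1 (difference 0.75, SE 0.20, adjusted p = 0.00549), as did TRP2 (0.83, SE 0.21, adjusted p = 0.00285). With compound 2, LEU9 (0.56, SE 0.17, adjusted p = 0.0163) and LYS4 (-0.56, SE 0.18, adjusted p = 0.0227) also differed. With a dye term 12 and 8 members had a higher and a lower response for compound 1 and 12 and 6 for compound 2, and in fits to each comparison's own arrays 0 members passed for compound 1 and 2 for compound 2. Without replicate 2 the count for compound 1 went from 9 to 3, and that for compound 2 from 5 to 1 without replicate 1, 3 without replicate 2 and 1 without replicate 3.

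The same strains were also compared with the compound in both. With compound 1 6 members were higher and 2 lower in 2-copy cells (all probes 5.07% and 4.88%), with compound 2 7 and 3 (all probes 3.06% and 4.69%) and with compound 5 7 and 8 (all probes 17.8% and 14.7%). With a dye term the counts higher and lower were 1 and 2 with compound 1 and 1 and 3 with compound 2. HIS4 was at 0.58, 0.62 and 1.00 with compound 1 (0.73 ± 0.23, adjusted p = 0.0284), 0.85, 1.01 and 1.01 with compound 2 (0.96 ± 0.093, adjusted p = 0.0042) and 0.19, 1.21 and 1.47 with compound 5 (0.96 ± 0.67, adjusted p = 0.00072), above 0 on all 9 arrays. SER3 was at 0.75, 0.75 and 0.53, 0.77, 0.71 and 0.59 and 1.06, 1.59 and 0.49 in that order (means 0.68, 0.69 and 1.05, adjusted p = 0.00864, 0.00981 and 5.66e-06). TRP4 was at -0.71, -0.82 and -0.27 with compound 1 and -0.36, -0.38 and -0.14 with compound 2 with no call (adjusted p = 0.073 and 0.53), and at -1.17, -1.57 and -0.69 with compound 5 (-1.15 ± 0.44, adjusted p = 3.62e-05). GLT1 was lower with compounds 1, 2 and 5 (-0.48, -0.56 and -0.42), and so was the acetolactate synthase subunit ILV6 (-0.44, -0.51 and -0.49). On the single kept arrays with compounds 3, 4 and 6, HIS4 was at 1.51, 0.98 and 1.30 and TRP4 at -0.53, -0.75 and -1.66. Without replicate 2 only 1 member passed with compound 1 and 1 with compound 2, and without replicate 3 2 and 4, and with compound 1 4 passed without replicate 1; with compound 5 9 passed without replicate 2.

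Set against untreated 2-copy over vector arrays at 4 h, the ratio of 10 members was raised and of 3 lowered with compound 1 (all probes 9.33% and 13.6%), 7 and 3 with compound 2 (all probes 10.7% and 15.8%) and 1 and 1 with compound 5 (all probes 1.8% and 3.15%). With arrays scaled to 1 spread, 1 and 0 members passed with compound 1 and 1 and 0 with compound 2. TRP4 rose by 1.09, SE 0.27, adjusted p = 0.00232 with compound 1 and by 1.39, SE 0.27, adjusted p = 8.05e-05 with compound 2. GLN1, at -0.49, -0.25 and -0.14, -0.56, -0.79 and 0.27 and -1.31, -0.053 and 0.30 with compounds 1, 2 and 5, fell by 1.20 (SE 0.26, adjusted p = 0.000426), 1.26 (SE 0.26, adjusted p = 0.000155) and 1.26 (SE 0.26, adjusted p = 0.00148). ARO4 rose with compound 1 (0.74, SE 0.17, adjusted p = 0.000958) and compound 5 (0.54, SE 0.17, adjusted p = 0.0454), LEU9 with compounds 1 and 2 (0.59 and 0.73), and SER33 fell with both (-0.81 and -0.74). HIS4 was not called with compound 1, 2 or 5 (changes of -0.46, -0.24 and -0.24, adjusted p = 0.238, 0.565 and 0.712). Without replicate 1 the count with compound 1 went from 13 to 6, and with compound 2 it went from 10 to 6 without replicate 2. With compound 5 it was 0, 1 and 4 without replicates 1, 2 and 3.

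Structures were compared in 25 pairs, 15 in vector cells and 10 in 2-copy cells, with p adjusted over all probes of a pair and doses that cannot be matched. Across the 6 compounds in vector cells, LYS20, ARO3, TRP2 and ARG3 differed in a moderated F test (adjusted p = 5.86e-05, 9.36e-06, 0.0189 and 0.0383), with 0.423% of all probes past the threshold, with 2 members without replicate 1 and 0 without replicate 2. Across compounds 1, 2, 4, 5 and 6 in 2-copy cells, 9 members differed, with 10.9% of all probes: LYS1, LYS20, HIS4, HIS5, LEU4, BAT1, SER3, SER33 and THR1, of which SER33 had the smallest adjusted p (0.000691). Without replicate 1 and without replicate 2 that count was 1 and 0. Compounds 1 and 2, which differ by iodine against bromine, gave no member past the threshold in either strain (limma, 5 and 1 members at an unadjusted p under 0.05 in vector and 2-copy cells; all probes 0.0314% and 0%). For TRP4 in 2-copy cells the difference was -0.018 with a 95% interval of -0.64 to 0.61, and for HIS4 -0.21 (-0.86 to 0.44). For ARG1 in vector cells it was 0.22 (-0.47 to 0.92). These intervals come from the fit without pairing and as such leave room for sizeable differences. Same-numbered arrays of these compounds deviated together, with correlations from 0.668 to 0.741 in 2-copy and 0.181 to 0.659 in vector cells. Paired intervals, which could be narrower, are not given here. Compounds 3 and 4, with bromine and fluorine at different ring positions, gave none in vector cells (limma, 0 at an unadjusted p under 0.05, all probes 0%). The difference was -0.39 for ARG1 (95% interval -1.08 to 0.30) and 0.22 for LYS20 (-0.18 to 0.62). Same-numbered arrays of this pair also deviated together (0.387 to 0.668), and these intervals are unpaired too.

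In the main fit, members passed the threshold only in pairs of compound 1, 2 or 4 with compound 5 or 6. A pair without a call does not show that its compounds acted alike. In vector cells LYS20 was lower with compound 1 than with compound 6 (-1.20, 95% interval -1.61 to -0.80, adjusted p = 0.000427) or compound 5 (-1.19, 95% interval -1.59 to -0.79, adjusted p = 0.0004), and lower with compound 4 than with compound 5 (-0.97) or 6 (-0.98). ARO3 was lower with compound 2 than with compound 6 (-1.14, 95% interval -1.45 to -0.84, adjusted p = 1.52e-06) and than with compound 5 (-0.64), and lower with compound 1 than with compound 6 (-1.02). TRP2 was lower with compound 1 than with compounds 5 and 6 (-0.88 and -1.03). The counts were thus 2, 3, 1, 1, 1 and 1 members for pairs 1 and 5, 1 and 6, 2 and 5, 2 and 6, 4 and 5, and 4 and 6, against 0.251%, 0.141%, 0.267%, 0.282%, 0.141% and 0.0157% of all probes. For pairs 1 and 5, and 2 and 5, where same-numbered arrays deviated together, a block for replicate number left 0 members. Without replicate 2, 0 passed for pairs 1 and 5, 1 and 6, 2 and 5, and 2 and 6. Without replicate 1, 0 passed for pair 2 and 5 and 2 for pair 2 and 6. Pair 4 and 5 had 0 without any 1 of the replicates, and pair 4 and 6 had 0 without replicate 1 or 3, while pair 5 and 6 had 1 without replicate 1. In the other pairs, 1 and 3, 1 and 4, 2 and 3, 2 and 4, 3 and 5, 3 and 6, and 5 and 6, no member passed (limma, 6, 5, 2, 1, 8, 7 and 1 at an unadjusted p under 0.05; all probes 0.0157%, 0.0157%, 0%, 0%, 0.0784%, 0% and 0.0314%).

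In 2-copy cells HIS4 and SER33 were lower with compound 1 than with compound 5 (-1.22, 95% interval -1.87 to -0.58, adjusted p = 0.0159, and -0.70, 95% interval -1.11 to -0.30, adjusted p = 0.0283), and lower with compound 2 than with compound 5 (-1.01 and -0.73). Against compound 6, 9 members were lower with compound 1: ARG1, LYS1, LYS2, HIS4, HIS5, LEU4, SER3, SER33 and GLN1, from -0.64 for LEU4 to -1.32 for HIS4. With compound 2 against compound 6, 8 members were lower, from -0.61 for LEU4 to -1.21 for ARG1, and LEU9 was higher (0.55). Compound 4 gave lower LYS20 than compound 5 (-0.88) and compound 6 (-1.07), and higher BAT1 than compound 5 (0.75). Of all probes, 4.67%, 7.31%, 9.39%, 10.7%, 0.8% and 0.831% passed in the pairs 1 and 5, 2 and 5, 1 and 6, 2 and 6, 4 and 5, and 4 and 6. Without replicate 1 or 2, 0 members passed for pairs 1 and 5, 1 and 6, 2 and 5, 2 and 6, and 4 and 6, and without replicate 3 there was 1 for pair 1 and 5 and 0 for pair 2 and 5. Pair 4 and 5 had 0 without replicate 2 and 1 without replicate 1 or 3. No member passed between compounds 1 and 4, 2 and 4, or 5 and 6 (limma, 9, 5 and 0 at an unadjusted p under 0.05; all probes 0.22%, 0.0941% and 0%). For HIS4 the interval between compounds 1 and 4 was -1.03 to 0.42.

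Other genes around these pathways were taken as 4 further lists, whose counts stand beside 32% and 29.8% of all probes higher and lower at 4 h, 22.6% and 20.2% at 6 h, and with compound 1 17.2% and 19.8% in 2-copy and 1.18% and 4.09% in vector cells. Of 20 more enzymes, 6 were higher and 4 lower in 2-copy than in vector cells at 4 h and 0 and 6 at 6 h, with medians of -0.014 and -0.13, at or under the share of all probes at 4 h. SHM2, cytosolic serine hydroxymethyltransferase, was at 1.46 ± 0.50 at 4 h (adjusted p = 5.09e-09). With compound 1 in 2-copy cells SHM2 was at -2.72 ± 0.39 (adjusted p = 2.56e-11). TRP1, the strain marker, was higher in 2-copy cells at 0, 2 and 4 h (0.36, 1.56 and 1.26, adjusted p = 0.0357, 7.92e-15 and 3.83e-19) and was at -0.13, 0.36 and 0.028 at 6 h. HIS3 and LEU2, mutant in the described strain, were at 0.17 and -0.33 at 4 h and at -0.20 and -0.40 at 6 h, with no call. LEU2 stood out on array 2 of compounds 1, 2 and 5 in vector cells, at 1.26, 1.25 and 1.49, and the part of the markers in the results was not tested.

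Among 17 regulators, 6 were higher and 4 lower at 4 h and 3 and 4 at 6 h, shares near those of all probes. GCN4 (YEL009C) itself had a lowest, median and highest log2 ratio of -0.54, -0.31 and -0.21 at 4 h (mean -0.33 ± 0.13, adjusted p = 0.00206) and was at -0.65, -0.93 and -0.49 at 6 h (-0.69 ± 0.22, adjusted p = 2.11e-05). GCN4 was thus lower on every 2-copy array at these times, also at 4 h, when 13 members were higher and 14 lower. With a compound no call was made for GCN4 in either strain, and compound 3 in 2-copy cells had no test. In vector cells the means of GCN4 with compounds 3 and 4 were -0.38 ± 0.058 and -0.35 ± 0.12 (adjusted p = 0.369 and 0.416). GCN2, the kinase above it, was at 0.43 at 4 h (adjusted p = 1.77e-06), and the arginine regulator gene ARG80 at -0.54 and -0.60 at 4 and 6 h (adjusted p = 0.000118 and 0.00348). At 4 h ARG80 averaged -0.85 on arrays 1 to 3 and -0.23 on arrays 4 to 6, without overlap. The nitrogen regulator gene GAT1 was at 0.34 and 0.77 at 4 and 6 h (adjusted p = 0.00666 and 5.37e-05).

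Genes of amino acid breakdown formed another list, and its difference from the synthesis genes was not tested. Of 12, 6 were higher and 2 lower at 4 h and 6 and 1 at 6 h, with medians of 0.39 and 0.39. Proline oxidase PUT1 was at 2.21 ± 0.74 and 3.57 ± 0.17 at 4 and 6 h, arginase CAR1 at 1.60 ± 0.45 at 6 h, and the aromatic aminotransferase ARO9 at -1.69 ± 1.17 and -1.43 ± 1.58 (adjusted p = 6.46e-17, 2.06e-18, 1.69e-10, 1.27e-05 and 0.0105). At 4 h ARO9 averaged -2.61 on arrays 1 to 3 and -0.78 on arrays 4 to 6, without overlap. With compound 1, 1 of the 12 was higher and 7 lower in 2-copy cells, and 0 and 3 in vector cells. Of 12 permeases, 2 were higher and 7 lower at 4 h and 0 and 5 at 6 h, and 5 were higher and 1 lower with compound 1 in 2-copy cells. For both lists the shares of all probes higher and lower were 32% and 29.8% at 4 h and 22.6% and 20.2% at 6 h. With compound 1 they were 17.2% and 19.8% in 2-copy cells and 1.18% and 4.09% in vector cells. The tyrosine and tryptophan permease TAT1 was at -1.04 ± 0.14 at 4 h, -0.71 ± 0.59 at 6 h and 0.87 ± 0.52 with compound 1 in 2-copy cells (adjusted p = 1.96e-09, 0.00209 and 0.000272).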

How the data were processed

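Two-colour arrays measured RNA of yeast cells. Per the submitters' processing notes limma was used, and the deposited table holds log2 ratios of 6377 probes, with no missing value, although the labels state neither log base, normalization nor background treatment. The sources used here give no genome build, spot intensities or limma version, so the signal behind a value, and hence its precision, is not known beyond the number of arrays. Probes were matched to RefSeq locus tags, 5644 as written and 196 after adding a hyphen, and 537 had no match. The deposited log2 ratios of 83 kept arrays in 30 groups were fitted in 1 model with a mean per group (limma 3.58.1 in R 4.3.3, lmFit and eBayes, 57.61 degrees of freedom for a probe), with Benjamini-Hochberg adjustment over all probes of a comparison and a threshold of 0.05. Differences were contrasts of that fit, and the fit was tested on simulated data. The members, lists and tests were chosen with earlier results of these data known. Members are named where they passed with 1 sign on every array or without overlap, up to 5 higher and 5 lower for strains and compounds and 3 elsewhere, beside paralogs, markers and the ends of the 4 main pathways. The other names were chosen after their values were seen. Same-numbered arrays were taken as paired where 3 array pairs existed and each correlated over 0.1, which held for 4 of 15 compound pairs in vector cells and 3 of 10 in 2-copy cells. The others in 2-copy cells had 2 array pairs. Over all 10 the correlations ran from 0.0587 to 0.741. All 95% intervals come from the fit without pairing. The result for 1 gene of the further lists is not reported here. Alternatives were a dye term, arrays scaled to 1 spread, a fit to each comparison's own arrays, all 93 arrays, a replicate block and leaving out replicates. A replicate number was left out of every group at once.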

Additional observations from a re-analysis of the deposited data

Results flagged for a closer look

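Of the 51 members, 2 had 1 array far from the other 5 in 2-copy over vector at 4 h, where chance marks about 1 in 20. For GDH1 that array was at 0.31, and for PRO2 at -0.48. Between 4 h and 6 h the test of the difference itself passed for ARG8 (0.58), HIS4 (-1.75), HIS5 (-1.50) and SER3 (-1.46), with arrays of the times apart. The response to compound 1 differed between 2-copy and vector cells for TRP4 (1.59), TRP2 (0.83), LYS20 (0.75), HIS5 (-0.89) and SER33 (-0.87). The response to compound 2 differed for TRP4 (1.11), LEU9 (0.56), HIS5 (-0.96) and LYS4 (-0.56). All are log2 values. In fits to each comparison's own arrays 0 members passed for the response to compound 1 and 2 for compound 2, and without replicate 2 they numbered 3 and 3.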

How the results depend on the processing

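No named member past the threshold changed sign under the alternatives run. These members were picked for 1 sign on every array or for no overlap, so a change of sign could hardly occur. The larger direction among the members called did change. With a dye term, 1 and 2 were higher and lower for 2-copy over vector with compound 1 and 1 and 3 with compound 2, and 12 and 6 for the response to compound 2. The last was 3 and 0 with arrays scaled to 1 spread. The change from 0 h to 4 h was 14 and 12 with a dye term and 7 and 4 with arrays scaled. Counts of members past the threshold stayed within 1.5 times of those reported in 157 cases and moved further in 114, counts for pairs of compounds in 106 and 76. Pathway medians moved by less than the spread between arrays in 1499 cases and by more in 239, of which 94 came with the dye term. Named members stayed past the threshold in 647 cases and missed it in 237. The cause was not tested. With a dye term, the count was 4 for 2-copy over vector at 2 h, 2 for 1-copy over 2-copy at 2 h, 3 for the change from 0 h to 2 h, 1 for compound 3 in vector cells, 0 for compound 5 in vector cells and 3 for 2-copy over vector with compound 1. It was 4 for 2-copy over vector with compound 2, 20 for the change with compound 1, 18 for the change with compound 2, 20 for the response to compound 1, 18 for the response to compound 2 and 3 for the response to compound 4. It was 2 for the response to compound 5 and 16 for differences among compounds 1, 2, 4, 5 and 6 in 2-copy cells. With arrays scaled to 1 spread, the count was 17 for 2-copy over vector at 6 h, 3 for 1-copy over vector at 0 h, 3 for 1-copy over vector at 2 h, 5 for 1-copy over vector at 4 h, 5 for 1-copy over vector at 6 h and 3 for 1-copy over 2-copy at 0 h. It was 14 for 1-copy over 2-copy at 4 h, 22 for 1-copy over 2-copy at 6 h, 11 for the change from 0 h to 4 h, 5 for the change from 0 h to 6 h, 10 for the change from 4 h to 6 h and 13 for compound 1 in 2-copy cells. It was 9 for compound 2 in vector cells, 19 for compound 3 in vector cells, 14 for compound 4 in vector cells, 2 for compound 5 in vector cells, 1 for compound 6 in vector cells and 8 for 2-copy over vector with compound 5. It was 1 for the change with compound 1, 1 for the change with compound 2, 0 for the change with compound 5, 5 for the response to compound 1, 3 for the response to compound 2 and 1 for the response to compound 4. It was 10 for differences among 6 compounds in vector cells and 1 for differences among compounds 1, 2, 4, 5 and 6 in 2-copy cells. In a fit to each comparison's own arrays, the count was 0 for 2-copy over vector at 0 h, 15 for 2-copy over vector at 6 h, 1 for 1-copy over vector at 4 h, 20 for 1-copy over 2-copy at 6 h, 4 for the change from 0 h to 6 h and 10 for compound 1 in 2-copy cells. It was 1 for compound 4 in 2-copy cells, 0 for compound 5 in 2-copy cells, 0 for compound 1 in vector cells, 0 for compound 2 in vector cells, 12 for compound 3 in vector cells and 4 for compound 4 in vector cells. It was 0 for compound 5 in vector cells, 1 for 2-copy over vector with compound 1, 0 for 2-copy over vector with compound 2, 4 for 2-copy over vector with compound 5, 0 for the change with compound 5 and 0 for the response to compound 1. It was 2 for the response to compound 2, 2 for the response to compound 4, 0 for differences among 6 compounds in vector cells and 1 for differences among compounds 1, 2, 4, 5 and 6 in 2-copy cells. With a replicate block, the count was 11 for the change from 0 h to 4 h, 1 for the change from 0 h to 6 h, 16 for the change from 4 h to 6 h, 8 for the change with compound 1, 0 for the change with compound 5 and 0 for the response to compound 1. It was 3 for the response to compound 2 and 0 for differences among 6 compounds in vector cells. With arrays 1 to 3 at 4 h, the count was 16 for the change from 4 h to 6 h. With arrays 4 to 6 at 4 h, the count was 1 for the change with compound 5. Leaving out 1 replicate in turn, the count ran from 2 to 5 for 2-copy over vector at 0 h, 0 to 1 for 2-copy over vector at 2 h, 1 to 4 for 1-copy over 2-copy at 2 h, 10 to 17 for the change from 0 h to 6 h, 17 to 22 for the change from 4 h to 6 h and 14 to 27 for compound 1 in 2-copy cells. It ran from 1 to 9 for compound 4 in 2-copy cells, 0 to 1 for compound 5 in 2-copy cells, 2 to 13 for compound 1 in vector cells, 2 to 5 for compound 2 in vector cells, 0 to 0 for compound 3 in vector cells and 0 to 1 for compound 4 in vector cells. It ran from 0 to 2 for compound 5 in vector cells, 1 to 4 for 2-copy over vector with compound 1, 1 to 7 for 2-copy over vector with compound 2, 9 to 17 for 2-copy over vector with compound 5, 6 to 9 for the change with compound 1 and 6 to 10 for the change with compound 2. It ran from 0 to 4 for the change with compound 5, 3 to 12 for the response to compound 1, 1 to 3 for the response to compound 2, 0 to 3 for differences among 6 compounds in vector cells and 0 to 9 for differences among compounds 1, 2, 4, 5 and 6 in 2-copy cells. The replicate block is given here for changes over time, changes with a compound and response differences, where same-numbered arrays did not deviate together throughout, and it moved no other of those counts by over 1.5 times. For pairs of compounds it left 0 members for 1 and 5, 1 and 6, 2 and 5, 2 and 6, 4 and 5, and 4 and 6 in vector cells, and in 2-copy cells 0 for 4 and 5, 13 for 4 and 6, 13 for 2 and 6, 8 for 1 and 6, 2 for 1 and 5 and 3 for 2 and 5. The number of arrays and the unknown signal over background limit all values.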
